A study of Homo sapiens with 24 samples.

Results

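CEACAM1, CEACAM5, and CEACAM6 (NCBI Gene 634, 1048, and 4680) are the 3 members of this surface antigen family chosen by symbol from the 14493 genes of a read count table, and each had a row. The family was selected because CEACAM5 was among the genes that rose most in ND-646 and TVB-3166 cells relative to untreated day-0 cells, so the values of those groups are given here as a description and are not tested. All 24 libraries came from SKBR3 cells, an established human breast cancer line with an amplified ERBB2 gene, in 8 groups of 3. Therapy-induced senescent (TIS) cells were made with ND-646, an ACC inhibitor, or TVB-3166, a FASN inhibitor, each at 250 nmol/L, with bleomycin at 10 μmol/L, doxorubicin at 10 nmol/L, palbociclib, a CDK4/6 inhibitor, at 1 μmol/L, or alisertib, an Aurora A kinase inhibitor, at 500 nmol/L. Drug was renewed on day 3 and cells were collected on day 7, and the untreated groups were proliferating cells at day 0 and control cells at day 7. A single line was used for all groups, and neither the labels nor the methods say whether the 3 replicates of a group were separate cultures, so p-values measure the spread between these libraries.

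CEACAM proteins are immunoglobulin-like glycoproteins of epithelial, endothelial, and blood cells that bind each other across cell contacts. CEACAM1 spans the membrane and carries inhibitory tyrosine motifs in its long cytoplasmic form, through which it acts as a checkpoint receptor on lymphocytes. CEACAM5, the carcinoembryonic antigen, and CEACAM6 are held in the membrane by a glycosylphosphatidylinositol (GPI) anchor. Both are targets of antibody therapies, and CEACAM5 is a serum tumor marker. The pregnancy-specific glycoproteins (PSGs), secreted proteins best known from the placenta, form the other branch of the family.

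The members lie in one gene cluster on chromosome 19 of GRCh37. CEACAM5 occupies 42212504 to 42234353 and CEACAM6 42254885 to 42276116, both on the plus strand and 20531 bases apart. CEACAM1 lies 735339 bases further on, from 43011456 to 43065386 on the minus strand. The 250 bases before the RefSeq start of each gene (table of GRCh38.p14) were found once on chromosome 19 of GRCh37, and the first 220 of them are printed 5′ to 3′ because they show which letters CEACAM5 and CEACAM6 share and CEACAM1 lacks. Capitals mark the E-box CACGTG, the sequence bound by USF factors, and the interferon regulatory factor (IRF) motif AANNGAAA.
CEACAM1 (chr19:43032664-43032883, minus strand): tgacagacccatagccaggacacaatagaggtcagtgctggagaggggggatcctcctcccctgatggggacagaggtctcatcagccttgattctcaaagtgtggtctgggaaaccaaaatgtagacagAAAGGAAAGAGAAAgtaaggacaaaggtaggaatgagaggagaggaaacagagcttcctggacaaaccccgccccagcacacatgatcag
CEACAM5 (chr19:42212295-42212514, plus strand): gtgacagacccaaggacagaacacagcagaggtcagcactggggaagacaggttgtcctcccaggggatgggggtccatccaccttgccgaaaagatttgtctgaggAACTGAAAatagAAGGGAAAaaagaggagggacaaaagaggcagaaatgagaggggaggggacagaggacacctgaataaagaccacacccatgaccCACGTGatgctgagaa
CEACAM6 (chr19:42259188-42259407, plus strand): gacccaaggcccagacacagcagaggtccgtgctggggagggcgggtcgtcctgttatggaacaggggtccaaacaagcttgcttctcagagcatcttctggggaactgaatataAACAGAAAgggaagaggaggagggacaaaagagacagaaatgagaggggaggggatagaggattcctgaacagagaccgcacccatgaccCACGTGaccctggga

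Aligned over the whole 250 bases, the CEACAM5 and CEACAM6 promoters were 74.6% identical, CEACAM1 and CEACAM5 66.2%, and CEACAM1 and CEACAM6 68.2%. The E-box began 46 bases before the start of CEACAM5 and 45 bases before that of CEACAM6, and it was not found in the CEACAM1 window. Of 35116 promoters of this length, 6.34% held that motif on either strand. The IRF motif was found at 120 and 114 bases before the start of CEACAM1, at 143 and 131 bases before that of CEACAM5, and at 135 bases before that of CEACAM6, against 20.3% of all promoters with at least 1. Both CEACAM1 matches overlap each other, whereas no match overlapped one of another motif. The GC box GGGCGG (42.6% of promoters) was present in the CEACAM1 and CEACAM6 windows. The ETS core GGAAG (65.1% of promoters) was present in all 3. These matches are letters in a window and were not tested as sites. The windows of CEACAM1 and CEACAM6 lie inside the annotated spans of their genes, which hold transcripts with earlier starts. The CEACAM5 window runs to 42212544 and so enters the annotated span of that gene, which begins at 42212504.

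Exchange of reads between close paralogs was gauged by exact matches only, so stretches that differ by a few bases are missed. Of the 150-base windows along the main transcript, 0% occurred exactly in another gene for each of the 3 members. At 50 bases the share was 4.76% for CEACAM1, 3.07% for CEACAM5, and 4.79% for CEACAM6. For CEACAM5 the matched genes include many outside the family. A gene model that joins CEACAM5 to CEACAM6 on the same strand shared 0.447% of the 150-base windows of CEACAM5 and 0.0409% of those of CEACAM6. The antisense RNA LIPE-AS1 covers the whole span of CEACAM1, and an antisense model overlaps CEACAM6. None of these overlapping models was analysed here, and use of strand in the counting is not stated, so reads of the members and of their antisense partners cannot be told apart.

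Library totals ranged from 29405121 to 44316330 counts (median 32053038). The epithelial markers of the line, ERBB2, GRB7, EPCAM, KRT8, KRT18, and KRT19, summed to between 9941 and 20054 CPM (counts scaled to a common library size with TMM factors), and CDH1 had no row in the table. None of the 10 leukocyte markers, 5 of them of granulocytes, had a row, nor did 4 of 5 fibroblast markers, and COL1A1 lay between 6.46 and 15.2 CPM. Of 4 endothelial markers, VWF did not exceed 1.47 CPM and CDH5 ranged from 2.43 to 47.0 CPM. Day-0 replicate 1 and ND-646 replicate 1 stood apart from the other libraries of their groups. In bulk RNA, more cells with a transcript and more transcript per cell cannot be told apart.

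CEACAM6 was the most abundant member in every group, and CEACAM1 the least abundant per kb in untreated, ND-646, TVB-3166, doxorubicin, and alisertib cells. Per kb of exon, untreated day-7 cells held 29.7 ± 4.33 CPM of CEACAM6, 1.19 ± 0.300 of CEACAM5, and 0.207 ± 0.0908 of CEACAM1 (SD, n = 3). Each gene had its own order of groups. CEACAM1 was highest in bleomycin cells and lowest in day-0 cells, with means 31.1-fold apart. CEACAM5 was highest in ND-646 cells and lowest in palbociclib cells, with means 33.5-fold apart, whereas the means of CEACAM6 spanned 5.51-fold, from untreated day-7 to ND-646 cells.

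**Figure D1:**
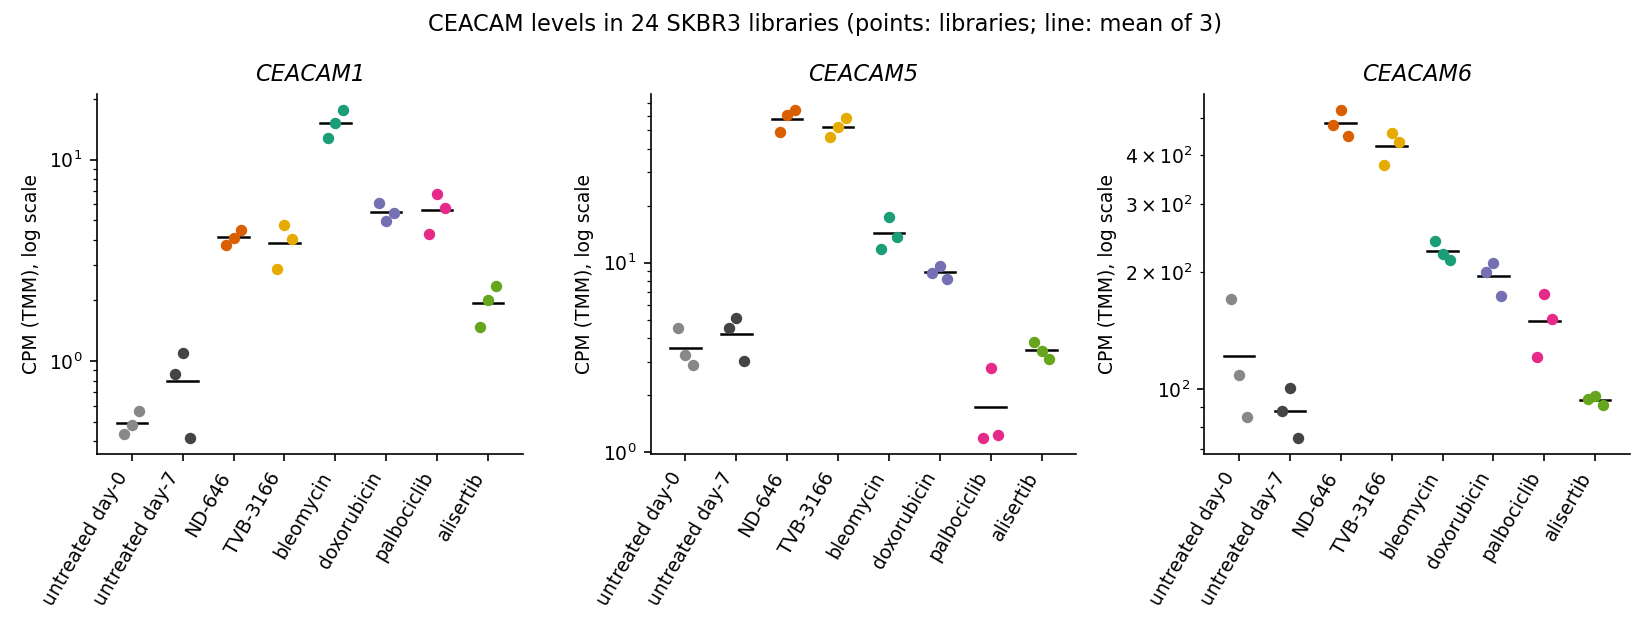
Levels of CEACAM1, CEACAM5, and CEACAM6 in CPM (TMM-scaled, log axis) in each of the 24 libraries by group, with points for libraries and lines for means of 3. CEACAM1 peaks in bleomycin cells, CEACAM5 and CEACAM6 in TVB-3166 and ND-646 cells, and palbociclib libraries are the lowest for CEACAM5.

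CEACAM1, the transmembrane member, was near the limit of detection in untreated cells. Its level in the 3 libraries was 0.432, 0.479, and 0.562 CPM at day 0 (17, 15, and 19 reads) and 0.860, 1.10, and 0.416 CPM at day 7 (39, 38, and 14 reads). It was 12.8, 15.3, and 17.7 CPM in bleomycin cells and 6.08, 4.96, and 5.44 CPM in doxorubicin cells. The lowest bleomycin library was above every library of the other groups. The values were 4.26, 6.76, and 5.77 CPM in palbociclib cells and 1.48, 2.01, and 2.35 CPM in alisertib cells, all above the untreated libraries. ND-646 cells held 3.77, 4.09, and 4.49 CPM and TVB-3166 cells 2.88, 4.71, and 4.04 CPM. Between neighbours in the order of means, the libraries overlapped for day-0 and day-7, for TVB-3166 and ND-646, and for doxorubicin and palbociclib cells, and were separate elsewhere.

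CEACAM5, the carcinoembryonic antigen, was above the untreated levels in 4 drug groups and below them in one. Untreated cells held 4.53, 3.26, and 2.87 CPM at day 0 and 4.50, 5.10, and 3.03 CPM at day 7. ND-646 cells reached 49.0, 60.1, and 64.2 CPM and TVB-3166 cells 46.0, 51.9, and 58.3 CPM. These 6 libraries were above all others, with no overlap. CEACAM5 levels were 11.8, 17.4, and 13.7 CPM in bleomycin cells and 8.83, 9.67, and 8.22 CPM in doxorubicin cells, also above every untreated library. In palbociclib cells they were 1.19, 2.76, and 1.23 CPM (41, 87, and 41 reads), below every other library, while alisertib cells, with 3.83, 3.42, and 3.12 CPM, overlapped both untreated groups.

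CEACAM6, also GPI-anchored, was at 74.9 CPM or more in every library. Day-0 libraries held 170.8, 109, and 84.6 CPM, and day-7 libraries 87.6, 100.5, and 74.9 CPM. Day-0 replicate 1 was high and made the day-0 libraries overlap those of palbociclib cells. ND-646 cells held 478, 524, and 448 CPM and TVB-3166 cells 378, 458, and 433 CPM, above all other libraries. Levels were 241, 223, and 216 CPM in bleomycin cells and 201, 212, and 173 CPM in doxorubicin cells. Palbociclib cells held 121, 176, and 152 CPM and alisertib cells 94.4, 96.1, and 90.9 CPM. Only the doxorubicin and bleomycin groups and the bleomycin and TVB-3166 groups were separate neighbours in the order of CEACAM6 means.

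The comparisons with untreated day-7 cells asked how each inducer moved the members at a matched time. They share the 3 day-7 libraries, so their values are not independent of each other. The labels name a refeed on day 3 for every drug group and none for the day-7 cells. Any effect of refeeding therefore cannot be told apart from that of a drug. Genes with a Benjamini-Hochberg adjusted p below 0.05 in the quasi-likelihood test of edgeR were called, and the SE and the 95% interval come from the same fit. Over the 4 inducers that had no part in the choice of members, 9 of 12 tests were called higher, 1 lower, and 2 were not called.

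CEACAM1 rose with all 4 of these inducers, most with bleomycin. The log2 fold-change in bleomycin cells was 4.27 (SE 0.30, 95% interval 3.60 to 4.93, adjusted p = 2.38e-05), which is 19.2-fold. It was 2.81 in doxorubicin cells (SE 0.28, adjusted p = 1.34e-05) and 2.81 in palbociclib cells (SE 0.31, adjusted p = 4.36e-05). In alisertib cells CEACAM1 rose by 1.31 (SE 0.33, adjusted p = 0.0202), but adjusted p-values were 0.0611, 0.0958, and 0.0666 without alisertib replicate 2, without alisertib replicate 3, and without day-7 replicate 3, respectively. Summed CPM of the endothelial markers with a row was 2.87 to 6.08 in day-7, 27.3 to 45.2 in bleomycin, 38.9 to 47.8 in doxorubicin, 38.9 to 45.9 in palbociclib, and 6.31 to 8.52 in alisertib libraries, nearly all of it CDH5, and its part in the CEACAM1 values was not tested.

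CEACAM5 rose with the DNA-damaging drugs and fell with palbociclib. Its log2 fold-change was 1.78 in bleomycin cells (SE 0.23, 95% interval 1.27 to 2.29, adjusted p = 0.000432) and 1.10 in doxorubicin cells (SE 0.19, 95% interval 0.69 to 1.51, adjusted p = 0.000643). In palbociclib cells it was -1.29 (SE 0.33, 95% interval -2.01 to -0.57, adjusted p = 0.00807), a 2.44-fold lower level. Relative to day-0 cells the palbociclib value was -1.05 (adjusted p = 0.0218), and without day-0 replicate 1 it was -0.83 (adjusted p = 0.0629). The alisertib value of -0.27 was not called (95% interval -0.74 to 0.19, adjusted p = 0.386).

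CEACAM6 rose with bleomycin, doxorubicin, and palbociclib, with values below those of CEACAM1. The log2 fold-change was 1.38 in bleomycin cells (SE 0.11, adjusted p = 5.47e-05), 1.18 in doxorubicin cells (SE 0.11, adjusted p = 1.05e-05), and 0.78 in palbociclib cells (SE 0.13, adjusted p = 0.000821). Relative to day-0 cells the palbociclib value was 0.30 (adjusted p = 0.272), and without day-0 replicate 1 it was 0.63 (adjusted p = 0.00337). In alisertib cells the value of 0.11 was not called (95% interval -0.10 to 0.33, adjusted p = 0.446).

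Calls were common among all genes in these fits, which limits what the count of members shows. Of all genes tested, 22.4% were called higher and 23.2% lower in bleomycin cells, where 3 of 3 members were higher. In doxorubicin cells 21.9% were higher and 21.5% lower, and again 3 of 3 members were higher. In palbociclib cells 22.0% were higher and 22.9% lower, with 2 members higher and 1 lower. In alisertib cells 9.55% were higher and 9.49% lower, and 1 member was higher. When replicate numbers, taken as pairing the libraries of this comparison, entered as a block, 4141 genes were called there in place of 2627, without a change for a member.

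For the lipogenesis inhibitors, the day-7 values are a description. In ND-646 cells the log2 fold-change was 3.77 (SE 0.23) for CEACAM5, 2.45 (SE 0.16) for CEACAM6, and 2.36 (SE 0.34) for CEACAM1. In TVB-3166 cells it was 3.63 (SE 0.17), 2.27 (SE 0.12), and 2.28 (SE 0.32), in that order. Without ND-646 replicate 1 the ND-646 values were 3.87, 2.46, and 2.41, in the same order. Among all genes, 17.2% were called higher and 17.1% lower in ND-646 cells and 25.4% and 26.1% in TVB-3166 cells. Between the untreated groups, the day-7 minus day-0 values were 0.71 (SE 0.39) for CEACAM1, 0.25 (SE 0.25) for CEACAM5, and -0.46 (SE 0.21) for CEACAM6, and the libraries of both groups overlapped for each gene.

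**Figure D2:**
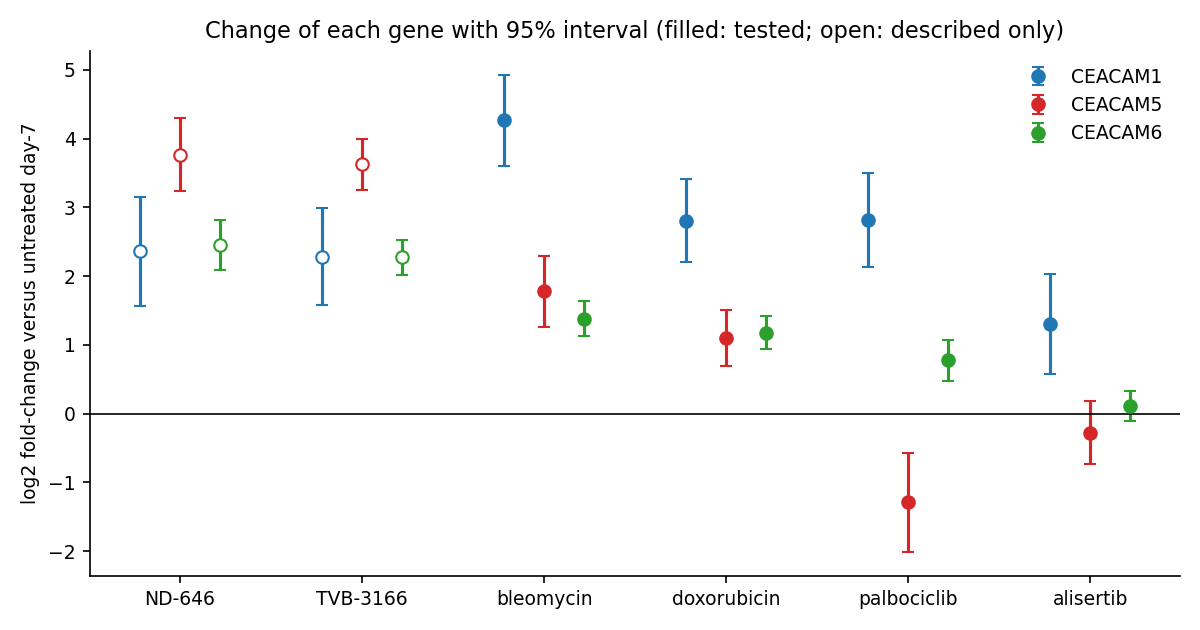
Log2 fold-change of CEACAM1, CEACAM5, and CEACAM6 relative to untreated day-7 cells for each of the 6 drugs, with 95% intervals from the edgeR fit. Filled points were tested and open points are descriptions, and CEACAM5 in palbociclib cells is the 1 point whose interval lies below 0.

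ND-646 and TVB-3166 were compared directly at the same dose and time, in libraries that had a part in the choice of members. No member was called, with TVB-3166 minus ND-646 log2 differences of -0.08 for CEACAM1 (95% interval -0.62 to 0.46, adjusted p = 0.908), -0.14 for CEACAM5 (-0.49 to 0.21), and -0.18 for CEACAM6 (-0.49 to 0.12, adjusted p = 0.561). The intervals do not show that both inhibitors act alike. Of all genes, 0.717% were called, 98 in number, 310 when replicate numbers entered as a block, and 1518 without ND-646 replicate 1, whereas leaving out any other library gave 0. No member was called in these fits.

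The 4 other inducers were compared with each other in 6 pairs, and 16 of 18 member tests were called. CEACAM1 was higher in bleomycin than in doxorubicin cells by 1.47 on the log2 scale (SE 0.17, adjusted p = 0.00496), and than in palbociclib cells by 1.45 (SE 0.20, adjusted p = 0.0013). Doxorubicin and palbociclib cells did not differ in CEACAM1 by the test, with a difference of -0.02 (95% interval -0.43 to 0.40, adjusted p = 0.955). All 3 of these groups were above alisertib cells, by 2.97, 1.5, and 1.52, respectively.

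CEACAM5 separated palbociclib cells from the other inducers. It was higher in bleomycin than in palbociclib cells by 3.06 (SE 0.32, adjusted p = 0.000351) and higher in doxorubicin than in palbociclib cells by 2.38 (SE 0.28, adjusted p = 0.000304). The palbociclib minus alisertib difference was -1.0 (SE 0.30, adjusted p = 0.0304), but when libraries were left out in turn it stayed called only without palbociclib replicate 2, the highest of its group, at -1.51. Bleomycin cells exceeded doxorubicin cells by 0.68 (SE 0.17, adjusted p = 0.0347), a difference that was lost when any 1 of 5 libraries was left out, with adjusted p-values of up to 0.135. Against alisertib, the differences were 2.07 for bleomycin and 1.38 for doxorubicin cells.

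For CEACAM6, the pair differences did not exceed 1.28. Bleomycin and doxorubicin cells were not called different (0.21, 95% interval -0.01 to 0.44, adjusted p = 0.185). The doxorubicin minus palbociclib difference of 0.39 (SE 0.12, adjusted p = 0.0394) was lost without a filter on low counts (adjusted p = 0.0545) and with all 24 libraries in one fit (adjusted p = 0.149), and these groups overlapped. Bleomycin exceeded palbociclib cells by 0.60 (SE 0.13, adjusted p = 0.00802), and alisertib cells were below bleomycin, doxorubicin, and palbociclib cells by 1.28, 1.07, and 0.68, respectively. The shares of all genes called in either direction were 12.1% for bleomycin versus doxorubicin, 30.6% for bleomycin versus palbociclib, and 38.0% for bleomycin versus alisertib cells. They were 25.0% for doxorubicin versus palbociclib, 25.8% for doxorubicin versus alisertib, and 28.3% for palbociclib versus alisertib cells. When replicate numbers, taken as pairing the doxorubicin and palbociclib libraries, entered as a block, 5949 genes were called there in place of 3472.

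The balance between members changed with the inducer. Per kb of exon within a library, CEACAM5 exceeded CEACAM1 by 6.17 ± 1.5-fold in day-7 cells (SD, n = 3), 15.1 ± 0.949-fold in ND-646 cells, and 14.9 ± 2.74-fold in TVB-3166 cells. The ratio of CEACAM5 to CEACAM1 was 1.02 ± 0.198 in bleomycin, 1.77 ± 0.293 in doxorubicin, 2.03 ± 0.703 in alisertib, and 0.324 ± 0.108 in palbociclib cells. Palbociclib cells were the one group in which CEACAM1 exceeded CEACAM5 in every library, with ratios from 0.229 to 0.441. CEACAM6 exceeded CEACAM5 by 25.5 ± 3.56-fold in day-7 cells and by 115.5 ± 36.5-fold in palbociclib cells, against 10.2 ± 1.67-fold in ND-646 and 9.77 ± 0.836-fold in TVB-3166 cells. CEACAM6 made up 90.1% to 97.2% of the per-kb sum of the 3 genes in the group means. That sum was 31.0 ± 4.71 CPM per kb in day-7 cells, 181 ± 12.7 in ND-646 cells, and 52.5 ± 9.75 in palbociclib cells.

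**Figure D3:**
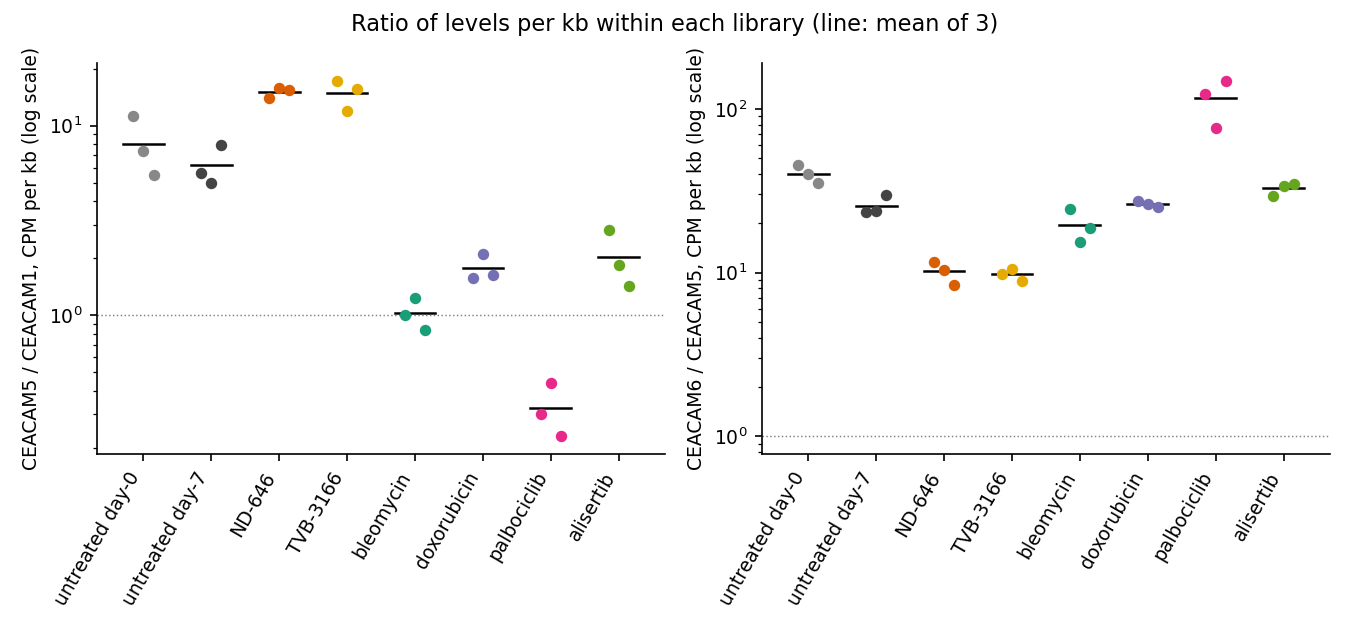
Ratio of CEACAM5 to CEACAM1 and of CEACAM6 to CEACAM5, each in CPM per kb of exon (log axis), within each of the 24 libraries, with lines for means of 3. Palbociclib libraries lie lowest in the first panel (0.229 to 0.441) and highest in the second (76.2 to 148).

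Of the 22 protein-coding CEACAM and PSG genes annotated on chromosome 19, 7 had a row: the 3 members, CEACAM19, PSG4, PSG5, and PSG9. The 3 PSGs were called higher with each of the 6 drugs. PSG4 was at 2.84, 3.73, and 2.02 CPM in day-7 libraries, 35.5, 34.7, and 47.8 CPM in bleomycin libraries, and 28.3, 17.3, and 27.9 CPM in doxorubicin libraries. Its log2 fold-change was 3.79 with bleomycin (SE 0.23, adjusted p = 1.43e-05), 3.12 with doxorubicin, 2.72 with palbociclib, and 2.18 with alisertib. PSG4 was called higher in alisertib cells (adjusted p = 0.000152), where CEACAM5 and CEACAM6 were not called, and that difference between genes was not tested.

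PSG9 had the greatest value of the 4 in bleomycin cells, 4.51 (SE 0.26, adjusted p = 1.13e-05), and 2.74 in alisertib cells (SE 0.27, adjusted p = 0.000237). Day-7 libraries held 18, 13, and 9 reads of PSG9 and 12, 14, and 16 reads of PSG5, so the fold-changes of these genes rest on few reads. PSG5 was the lowest of the 3 PSGs in palbociclib cells at 1.54 (SE 0.32, adjusted p = 0.00282), and its palbociclib minus alisertib difference was -1.07 (SE 0.24, adjusted p = 0.00656), the same sign as for CEACAM5. In ND-646 and TVB-3166 cells the PSG values lay between 2.03 and 2.67. CEACAM19, at 0.302 ± 0.191 CPM in day-7 cells (SD, n = 3), was called higher with bleomycin (2.0), palbociclib (1.87), and doxorubicin (1.71) and not with ND-646 (1.27), TVB-3166 (1.04), or alisertib (0.56). PSG values are uncertain between paralogs, because 24.9% to 26.4% of the 50-base windows of PSG4, PSG5, and PSG9 occur in another gene, as do 3.96% and 2.81% of the 150-base windows of PSG5 and PSG9.

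**Figure D4:**
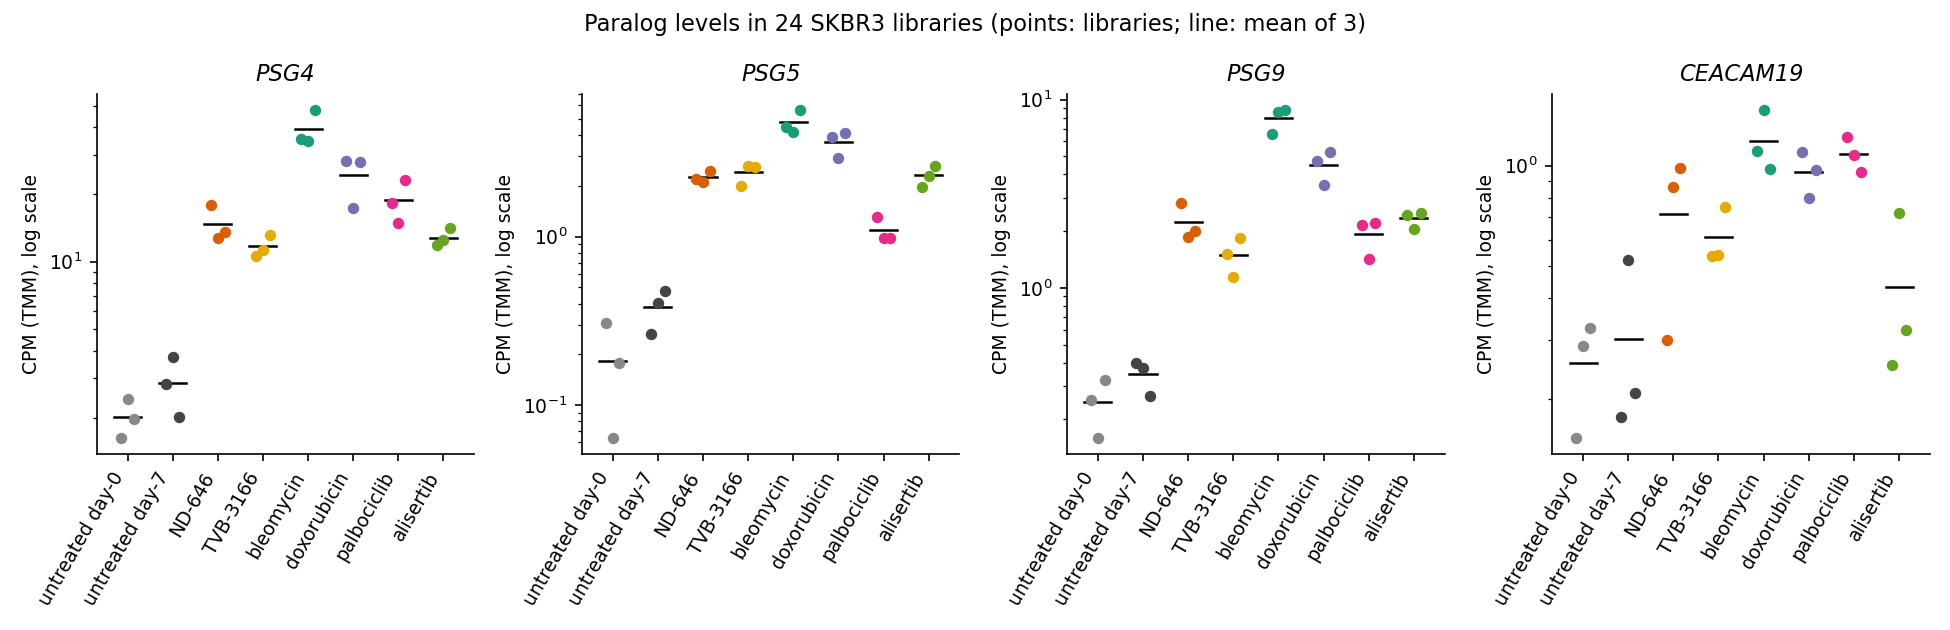
Levels of PSG4, PSG5, PSG9, and CEACAM19 in CPM (TMM-scaled, log axis) in each of the 24 libraries by group, with points for libraries and lines for means of 3. All 3 PSGs are highest in bleomycin cells and every drug-treated library lies above the untreated ones for them.

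Within 200 kb of a member, 8 other genes had a row, and the 6 described here had log2 fold-changes between -1.14 and 0.70. RPS19, a ribosomal protein gene 88.2 kb from CEACAM6, ranged from -0.48 to 0.15 on the log2 scale over the 6 comparisons with day-7 cells and ARHGEF1 from -0.20 to 0.33. RABAC1 ranged from -0.26 to 0.70. Near CEACAM1, LIPE, the gene of hormone-sensitive lipase 79.9 kb away, ranged from -0.84 to 0.03, with 1 call lower. CNFN was called lower with bleomycin, doxorubicin, and palbociclib (-0.97, -1.0, and -1.06), and PRR19 ranged from -1.14 to 0.48.

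**Figure D5:**
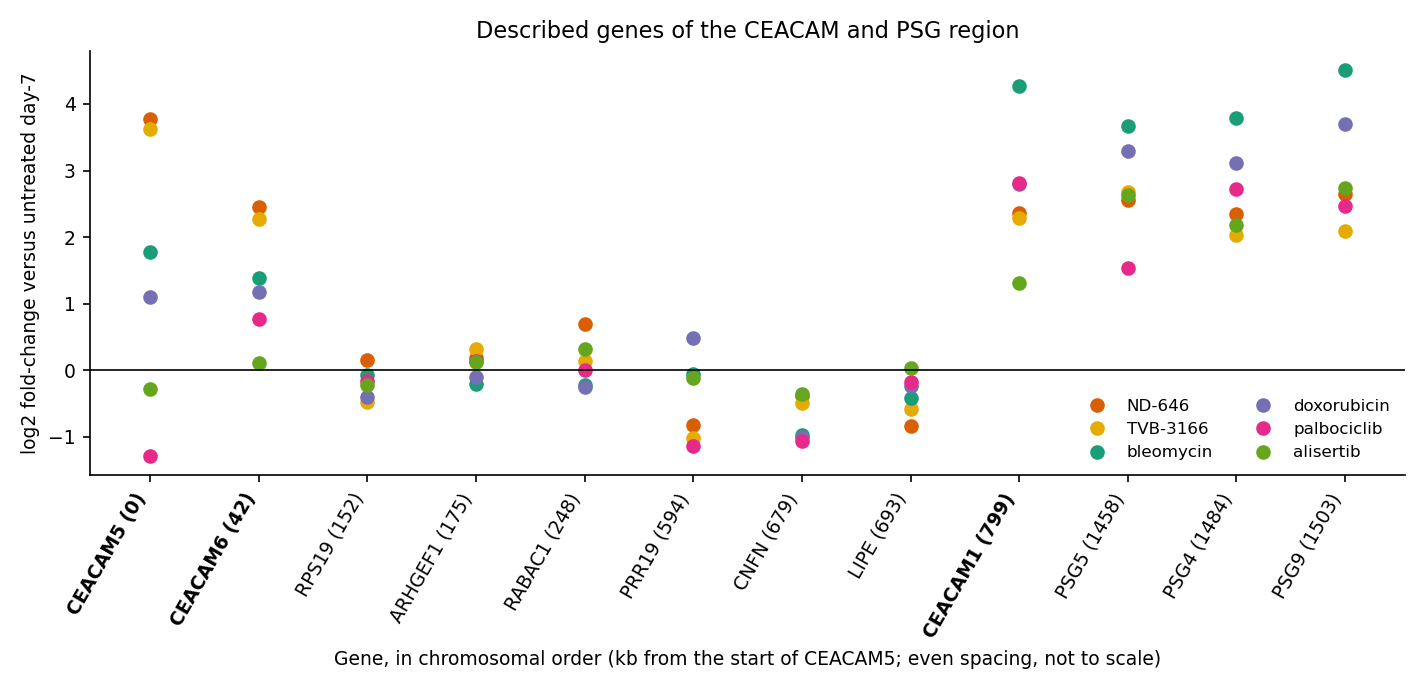
Log2 fold-change relative to untreated day-7 cells with each of the 6 drugs (colors) for 12 genes of the CEACAM and PSG region that have a row, in chromosomal order with the distance in kb from the start of CEACAM5 in brackets. The members (bold) and PSGs reach values over 2 with at least 1 drug, and the 6 neighboring genes drawn lie between -1.14 and 0.70.

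The genes most like each member were ranked by Pearson's r of log2 CPM over the 24 libraries among 12608 genes, as a description in which libraries of a group are not independent. CEACAM1 was followed most closely by MUC20P1 (r = 0.966), PIGR (0.965), MUC20 (0.963), UBA7 (0.958), and APOL6 (0.958). PIGR encodes the polymeric immunoglobulin receptor, and its level went from 1.34 ± 0.760 CPM in day-7 cells to 172.8 ± 124 CPM in bleomycin cells (SD, n = 3). MUC20P1 is a pseudogene of the mucin gene MUC20, and their reads may be shared. For CEACAM5 the nearest genes were SLC6A9 (0.961), a glycine transporter gene, BCAR3 (0.959), LINC01269 (0.953), CTDSP2 (0.935), and C1orf127 (0.931). LINC01269 was at 0.468 ± 0.178 CPM in day-7, 4.68 ± 0.718 CPM in ND-646, and 0.468 ± 0.189 CPM in palbociclib cells. For CEACAM6 they were CLCN3 (0.943), ARHGEF2 (0.941), LINC01269 (0.937), PLXNB2 (0.932), and TMEM51 (0.932).

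Among the members, CEACAM5 and CEACAM6 had r = 0.893, which put CEACAM6 at rank 37 for CEACAM5 and CEACAM5 at rank 43 for CEACAM6. CEACAM1 had r = 0.376 with CEACAM5 and 0.555 with CEACAM6. Of the 5 genes named for each member, 1 to 2 stayed among the first 5 with Spearman's rank correlation or over the 8 group means.

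Genes around the members' biology were read from lists. The medians of all genes lay between 0.00 and 0.02 in the 6 comparisons. Of all genes, 17.2% were called higher and 17.1% lower in ND-646 cells, and 25.4% and 26.1% in TVB-3166 cells. The shares were 22.4% and 23.2% in bleomycin and 21.9% and 21.5% in doxorubicin cells. They were 22.0% and 22.9% in palbociclib and 9.55% and 9.49% in alisertib cells. Counts of every list below stand beside these shares, against which no list was tested. GPI anchor synthesis and transfer, the route by which CEACAM5 and CEACAM6 reach the membrane, held 30 genes with a row of 31. Of these, 1 was called higher and 9 lower in bleomycin cells, 2 and 8 in doxorubicin cells, and 2 and 10 in palbociclib cells, with medians of -0.17, -0.16, and -0.05. In ND-646 cells 6 were higher and 4 lower (median 0.12), in TVB-3166 cells 7 and 8 (0.09), and in alisertib cells 2 and 1 (-0.01). PIGG, which adds a side-chain phosphoethanolamine, was the gene with the largest rise in 5 comparisons, up to 0.99 in ND-646 cells (SE 0.14, adjusted p = 0.00133), and PGAP6 in bleomycin cells (0.40). The largest falls were those of PIGU, a GPI transamidase subunit, in bleomycin (-0.89), palbociclib (-0.73), and TVB-3166 cells (-0.61), of PIGF in ND-646 cells (-0.85), of PGAP2 in doxorubicin cells (-0.55), and of PIGT in alisertib cells (-0.24).

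Other GPI-anchored surface proteins (22 of 28 with a row) moved in both directions. In ND-646 cells 8 were called higher and 2 lower, in TVB-3166 cells 10 and 4, in bleomycin and in doxorubicin cells 10 and 3 each, in palbociclib cells 6 and 6, and in alisertib cells 3 and 0. PRSS8, the channel-activating protease prostasin, rose most in ND-646 (2.32) and TVB-3166 cells (1.87), from 193 ± 34.0 CPM in day-7 cells to 974 ± 366 and 703 ± 16.8 CPM (SD, n = 3). NT5E, the ectonucleotidase CD73, rose most in doxorubicin (3.06), palbociclib (2.99), and alisertib cells (1.36), and BST2, or tetherin, in bleomycin cells (3.06). ULBP2, a ligand of the NKG2D receptor, fell most in ND-646 (-1.87) and TVB-3166 cells (-1.35), LY6K in palbociclib (-1.41) and bleomycin cells (-0.79), and LYPD3 in doxorubicin cells (-0.55). ULBP2 and LY6K were low, at 2.33 ± 0.602 and 1.31 ± 0.238 CPM in day-7 cells (SD, n = 3).

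The CEACAM1 binding and signaling partners (11 of 12 with a row) gave 2 calls higher and 1 lower in ND-646 cells, 3 and 5 in TVB-3166, 4 and 3 with bleomycin, 5 and 3 with doxorubicin, 5 and 2 with palbociclib, and 2 and 4 with alisertib. PTPN6 and PTPN11, the SHP-1 and SHP-2 phosphatases that bind its inhibitory motifs, were at 0.53 and 0.01 in bleomycin cells, of which the first was called. In TVB-3166 cells both were called, PTPN6 higher (0.28) and PTPN11 lower (-0.32), and neither was called with the remaining drugs. The tyrosine kinase SRC had the largest rise in bleomycin cells (1.51, SE 0.13, adjusted p = 6.42e-05). S100A10 rose most in ND-646 (1.18), TVB-3166 (0.57), doxorubicin (0.93), and alisertib cells (0.74), and ANXA2, its partner, in palbociclib cells (0.74). Among the largest falls were those of FLNA, the actin crosslinker filamin A, in TVB-3166 cells (-0.71), of the calmodulin gene CALM2 in doxorubicin (-0.53) and palbociclib cells (-0.50), and of TPM1 in alisertib cells (-0.32).

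The N-glycan branching and Lewis antigen enzymes, which build the sugars that CEACAM proteins carry, had 15 genes with a row of 19. From 6 to 9 were called higher and 0 to 2 lower in every drug group but alisertib, where 3 were higher and 0 lower, and medians lay between 0.08 and 0.32. FUT3, the Lewis fucosyltransferase, rose most in 5 of 6 comparisons, by 2.17 in ND-646 (SE 0.27), 1.92 in bleomycin, 1.78 in TVB-3166, 1.68 in doxorubicin, and 1.59 in palbociclib cells. ST6GAL1, an α-2,6-sialyltransferase, rose most in alisertib cells (1.35, SE 0.12, adjusted p = 0.000152). ST3GAL3 fell most in ND-646 (-1.14), palbociclib (-0.79), and doxorubicin cells (-0.59).

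Of the factors with known sites in CEACAM promoters, 9 of 12 had a row, and CDX1, CDX2, and HNF4A did not. Of the 9, 4 were called higher and 0 lower in ND-646 cells, 5 and 0 in TVB-3166 cells, and 6 and 1 in bleomycin cells. The counts were 3 and 0 in doxorubicin, 3 and 2 in palbociclib, and 3 and 0 in alisertib cells. IRF1, which binds the IRF motif, was called higher with all 6 drugs, at 2.79 in bleomycin (SE 0.15, adjusted p = 8.69e-06), 2.26 in doxorubicin, 1.86 in ND-646, 1.66 in palbociclib, 1.32 in TVB-3166, and 0.83 in alisertib cells. SOX9 had the largest rise in ND-646 (1.99) and TVB-3166 cells (1.80), and SMAD3 in palbociclib cells (2.26, SE 0.11). The E-box factors moved less. USF1 was not called in any comparison, with values from -0.03 to 0.22, and USF2 was called higher in ND-646 (0.61), bleomycin (0.38), and TVB-3166 cells (0.23) and lay between -0.06 and -0.02 in the other 3. SP1 fell in palbociclib cells (-0.33) and TFAP2A in bleomycin cells (-0.39).

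Other epithelial surface tumor antigens (14 of 18 with a row) were called higher for 9 genes in ND-646, 11 in TVB-3166, 6 with bleomycin, 8 with doxorubicin, 8 with palbociclib, and 4 with alisertib, and lower for 3 genes, all in palbociclib cells. CLDN4, a tight-junction claudin, rose most in ND-646 (1.57) and TVB-3166 cells (1.22), LGALS3BP in bleomycin cells (1.53), and CLDN3 in alisertib cells (0.70). ITGB6 rose most in doxorubicin (1.58) and palbociclib cells (2.36, SE 0.23, adjusted p = 1.80e-05). The antigens that fell in palbociclib cells were MUC16, the CA-125 mucin (-2.61, SE 0.41, adjusted p = 0.000477), MUC1 (-0.65), and CLDN3 (-0.32). MUC16 was low, at 1.55 ± 0.656 CPM in day-7 and 0.251 ± 0.0938 CPM in palbociclib cells (SD, n = 3). NECTIN4, a nectin adhesion molecule, was called higher in palbociclib cells (0.79).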

How the data were processed

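RNA-seq was performed on 24 libraries, and the deposited file holds raw read counts per gene, made by the authors with HISAT2 on GRCh37 and StringTie per the labels. Counting settings are not given in the sources used here, and the table has no count below 1. The test on counts was that of edgeR 4.0.16 (R 4.3.3, TMM factors, filterByExpr, quasi-likelihood F-test, Benjamini-Hochberg adjustment over all genes tested), fitted on the 2 groups compared. DESeq2 1.42.0 and other settings were alternatives. Levels are CPM with TMM factors, likeness used log2 CPM with a prior count of 2, and with 3 against 3 an exact permutation test cannot go below p = 0.1. Fits were tested on simulated data. Locus annotation was GENCODE v44lift37. Members, paralogs, genes within 200 kb, the 5 genes most like each member, and the called gene with the largest rise and fall of each list were named by rule, while IRF1, USF1, USF2, PTPN6, PTPN11, MUC1, CLDN3, and NECTIN4 were also named after their values were seen. Some genes that the rule names are not reported here. Members and lists were chosen with earlier results of these data known. Replicate numbers were taken as pairing libraries in the 7 of 14 comparisons in which all 3 same-number correlations of deviations from the group means were above 0.1 (0.105 to 0.380), a hint from the data, since the labels do not say what a number marks.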

Additional observations from a re-analysis of the deposited data

Results flagged for a closer look

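CEACAM5 stood out because ND-646 and TVB-3166 moved it one way and palbociclib the other. Every ND-646 library (log2 fold-change 3.77) and every TVB-3166 library (3.63) was above all day-7 libraries, and every palbociclib library was below them (-1.29), a difference that was not tested. The ND-646 and TVB-3166 side follows from the choice of CEACAM5, which was made on its rise in those libraries relative to day-0 cells.

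The other differences are those between pairs of inducers that passed edgeR's quasi-likelihood test. For CEACAM1 they were 2.97 for bleomycin minus alisertib, 1.47 for bleomycin minus doxorubicin, 1.45 for bleomycin minus palbociclib, 1.5 for doxorubicin minus alisertib, and 1.52 for palbociclib minus alisertib cells on the log2 scale. For CEACAM5 they were 3.06 for bleomycin minus palbociclib, 2.38 for doxorubicin minus palbociclib, 2.07 for bleomycin minus alisertib, 1.38 for doxorubicin minus alisertib, 0.68 for bleomycin minus doxorubicin, and -1.0 for palbociclib minus alisertib cells. For CEACAM6 they were 1.28 for bleomycin minus alisertib, 1.07 for doxorubicin minus alisertib, 0.68 for palbociclib minus alisertib, 0.60 for bleomycin minus palbociclib, and 0.39 for doxorubicin minus palbociclib cells. The comparisons share libraries and are not independent.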

How the results depend on the processing

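Of the alternative values for the members' log2 fold-changes, 507 kept their direction and, where tested, their side of the threshold. Described values among the 507 moved by less than the combined SD of log2 CPM of their groups. Of the rest, 21 lost a call, 7 changed sign, and 5 described values moved by more. With untreated day-0 cells as reference, CEACAM6 was 0.30 in palbociclib (not called) and -0.37 in alisertib cells, ND-646 cells were at 3.05 for CEACAM1 and 1.98 for CEACAM6, and TVB-3166 cells at 1.80 for CEACAM6. Without day-0 replicate 1 as well, an alternative added after seeing the data, CEACAM5 was -0.83 in palbociclib (not called), 0.18 in alisertib, 4.22 for ND-646, and 4.09 for TVB-3166 cells, and CEACAM6 was -0.033 in alisertib cells. The doxorubicin minus palbociclib difference of CEACAM6 was 0.38 without a filter on low counts and 0.39 with all 24 libraries in one fit, neither called. On plain library totals, ND-646 cells held 3.68 CPM of CEACAM1 and 431 CPM of CEACAM6, and alisertib cells 99.8 CPM of CEACAM6. The cause was not tested.

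When libraries were left out in turn, CEACAM1 in alisertib cells ranged from 1.02 to 1.58, CEACAM5 in bleomycin minus doxorubicin from 0.52 to 0.79 and in palbociclib minus alisertib cells from -1.51 to -0.80, and CEACAM6 in doxorubicin minus palbociclib cells from 0.26 to 0.51, each with calls lost. CEACAM1 changed sign in doxorubicin minus palbociclib cells (-0.18 to 0.13, with 0.05 without doxorubicin replicate 2, 0.13 without palbociclib replicate 2, and 0.00 without palbociclib replicate 3) and in TVB-3166 minus ND-646 cells (-0.24 to 0.10, the latter without TVB-3166 replicate 1), where no call was made.

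Counts of called genes moved more. Alisertib versus day-7 cells gave 2627 called genes, 1141 with all 24 libraries, 5135 against day-0 cells, and 1062 to 2800 with a library left out. Bleomycin versus doxorubicin cells gave 1673, with 2514 by DESeq2 and 72 to 2069 with a library left out, and doxorubicin versus palbociclib cells 3472, with 2098 in the fit of all libraries. TVB-3166 versus ND-646 cells gave 98, with 32 without a filter, 762 by DESeq2, and 1268 in the fit of all libraries. That fit also gave 1823 in place of 3596 for doxorubicin versus alisertib, 2475 in place of 3916 for palbociclib versus alisertib, and 7059 in place of 4692 for ND-646 versus day-7 cells, the last being 7618 without ND-646 replicate 1. The replicate block changed no member's call. The numbers were not taken as pairing bleomycin with doxorubicin or day-7 with day-0 libraries, where the block gave 2706 called genes in place of 1673 and 1263 in place of 80. A leave-one-out fit leaves 2 libraries in 1 group, and CEACAM1 in untreated cells rests on 14 to 39 reads a library.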
